A study of Bos taurus with 8 samples.

Results

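Bovine mammary epithelial cells carrying the EEF1D-1357 short hairpin RNA (shRNA) were compared with cells without shRNA on 5 of the 8 arrays of the series: all 3 arrays titled EEF1D-1357 shRNA and both control arrays, chosen by title. An shRNA is a hairpin transcript that the cell cuts into a small RNA, which lowers the mRNA it matches. The cells (BMECs) were primary cultures grown from mammary tissue blocks of a lactating Holstein cow, used in every group at the fifth passage, so all arrays can share 1 donor animal. The labels give EEF1D knockdown as the genotype of the shRNA cells and control as that of the others. They name no non-targeting hairpin, no delivery method and no time after delivery. The other 3 arrays carried a second hairpin against the same gene, EEF1D-1893, and enter here through the shared spread and 1 direct comparison. The labels do not say whether replicates were separate cultures, so the p-values measure the spread between these arrays, which may be technical.

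EEF1D codes for the delta subunit of elongation factor 1, a factor of protein synthesis. Together with the beta and gamma subunits it forms the exchange complex that reloads eEF1A with GTP, so that eEF1A can bring the next aminoacyl-tRNA to the ribosome. Mammary epithelial cells make and secrete milk proteins and fat, and they also sense bacteria and answer with chemokines, acute phase proteins and beta-defensins, small peptides that kill microbes.

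The sequences of the EEF1D probes come first because they are what the array could see of the target, followed by those of the inflammatory and defence genes and of TOX, with which the results open. All are printed 5' to 3' as the array design lists them, and positions are those of the design on Btau_3.1, with start above end for the minus strand. Probes in full have at least 1 reading frame without a stop codon, and A_73_P279701 and A_73_115715 are cut after the stop codon TGA. In the EEF1D pair, capitals mark the 1 base that differs over the 33 bases they share (T22A, counted from the 5' end of A_73_115715). In the CCL20 pair, capitals mark the 5 differences over 46 aligned bases (A9G, C30T, C31T, C32T and A36G, counted from the 5' end of A_73_P110576).
EEF1D A_73_P265551 (chr14:931228-931287): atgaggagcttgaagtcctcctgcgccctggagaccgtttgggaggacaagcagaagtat
EEF1D A_73_P159712 (chr14:934089-934148): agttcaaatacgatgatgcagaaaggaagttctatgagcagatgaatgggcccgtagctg
EEF1D A_73_P279701 (chr14:938160-938333): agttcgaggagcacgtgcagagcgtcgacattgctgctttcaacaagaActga
EEF1D A_73_115715 (chr14:938301-938360): acattgctgctttcaacaagaTctga
CXCL8 A_73_P107676 (chr6:91792569-91792628): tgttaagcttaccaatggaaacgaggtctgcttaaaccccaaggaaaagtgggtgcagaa
CCL20 A_73_P110576 (chr2:120594117-120594176): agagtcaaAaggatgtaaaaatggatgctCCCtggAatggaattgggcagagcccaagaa
CCL20 A_73_P052371 (chr2:120593241-120593300): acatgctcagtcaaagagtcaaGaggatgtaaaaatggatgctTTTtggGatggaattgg
DEFB7 A_73_119995 (chr27:7372897-7372838): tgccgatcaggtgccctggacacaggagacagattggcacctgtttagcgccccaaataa
DEFB10 A_73_P031106 (chr27:6784320-6784379): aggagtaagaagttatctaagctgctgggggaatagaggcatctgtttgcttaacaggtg
TOX A_73_P299346 (chr14:24910111-24821400): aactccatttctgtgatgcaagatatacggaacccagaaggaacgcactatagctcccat
The DEFB7 and DEFB10 probes share no run longer than 6 bases. The brightest probes of SAA3 and M-SAA3.2, by contrast, share a run of 24 bases, and the levels of these 2 genes are uncertain as separate measurements. Where the hairpin pairs with the transcript is not stated by the labels, and no probe was placed relative to that site.

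Levels below are log2 intensities minus the 75th percentile of the same array, so 0 stands for a fairly bright probe. They are given in the order EEF1D-1357 replicates 1, 2 and 3, then control replicates 1 and 2. Fold changes are differences of group means on the same log2 scale, unless written as N-fold. Between 60.7% and 71.6% of probes per array were well above background, 0 spots were saturated, and the 75th percentile ranged from 1276 to 2102 intensity units. Precision is limited by the number of arrays. The EEF1D-1357 arrays shared slide 1 with control replicate 2, while control replicate 1 lay on slide 2. Over 12617 genes the SD of the log2 difference was 0.50 between EEF1D-1357 replicates 1 and 2, and 0.71 and 0.73 between each of them and replicate 3. It was 0.83 between the controls, 0.71 to 0.72 between EEF1D-1357 arrays and control replicate 2, and 0.83 to 0.89 between them and control replicate 1. Replicate 3 thus stood as far from its own group as from the control on its slide. Of the luminal epithelial markers 7 of 12 on the array were well above background on all 5 arrays, among them the keratins KRT8 (7.66, 7.59 and 7.59 against 8.24 and 7.63) and KRT18 and the adhesion protein EPCAM, and of the basal markers 10 of 12. The prolactin receptor PRLR, the steroid hormone receptors ESR1 and PGR, and KIT were well above background on none.

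EEF1D transcript was lower with the hairpin than in the mean of the controls, but the difference did not pass. The brightest probe, A_73_115715, read 5.97, 5.85 and 5.09 with EEF1D-1357 and 7.11 and 6.14 in the controls. All 3 hairpin arrays lay below both controls, with replicate 3 lowest, and control replicate 1 highest. The controls were 0.98 log2 units apart, about as much as the groups. The log2 fold change was -0.99 (SE 0.36), that is 50.4% of control (limma adjusted p = 0.263). Against control replicate 2 alone it was -0.50 (SE 0.36), or 70.7% of that control (limma adjusted p = 0.557). Without control replicate 2 it was -1.48, but the lone control then lay on the other slide, so hairpin and slide cannot be told apart. Without EEF1D-1357 replicate 3 the fold change was -0.71.

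The overlapping probe A_73_P279701 read 5.59, 5.47 and 4.64 against 6.70 and 5.82, the same order of arrays, with a log2 fold change of -1.02 (SE 0.35). A_73_P159712, a dimmer probe, read -0.58, -0.71 and -2.08 against 1.11 and -0.22. Its fold change was the largest of the 4, -1.57 (SE 0.53) over both controls and -0.91 (SE 0.59) against control replicate 2. The dim A_73_P265551 read -5.02, -4.95 and -5.39 against -3.91 and -5.26, and replicate 3 did not reach the level well above background. In that probe the controls enclosed all but replicate 3, and the fold change turned from -0.53 over both controls to 0.14 against control replicate 2.

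**Figure D1:**
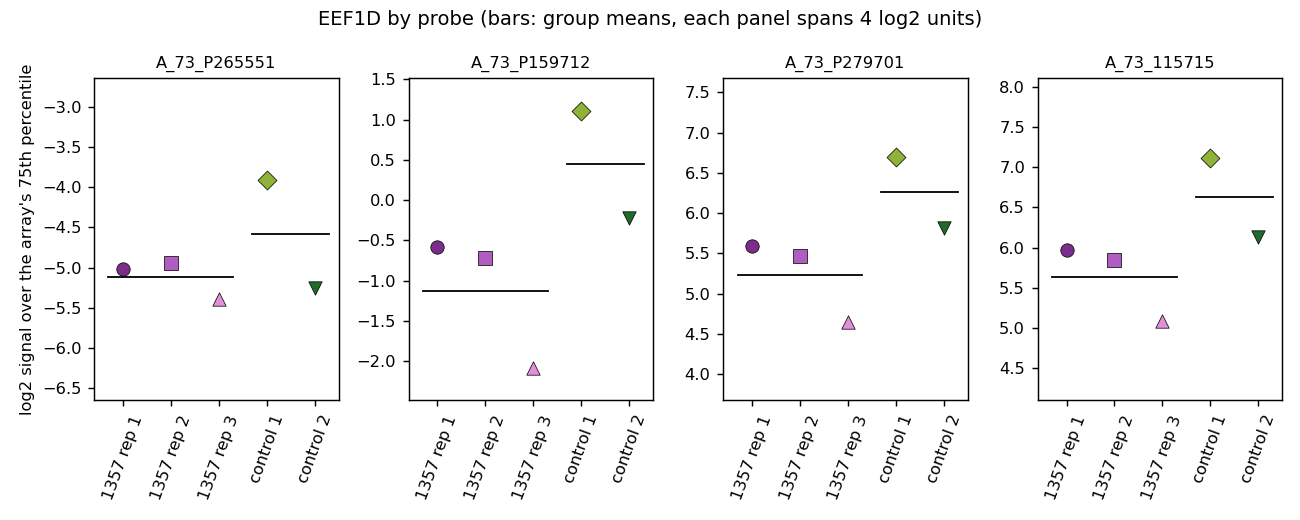
Scaled log2 signal (vertical axis, each panel spanning 4 log2 units) of the 4 EEF1D probes in the 3 EEF1D-1357 arrays and both controls, ordered by position, with bars at the group means. In the 3 right panels all hairpin arrays lie below both controls and control replicate 2 lies close to hairpin replicates 1 and 2; in the left panel control replicate 2 lies below them.

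No gene passed over all 12617 genes when the 3 hairpin arrays were compared with both controls (0 called, 0%, at a limma adjusted p under 0.05; the smallest was 0.0558). Before adjustment 2047 genes had a p under 0.05, of which 786 were higher (6.23% of all genes) and 1261 lower (9.99%). All 3 hairpin arrays lay above both controls in 1538 genes (12.2%) and below both in 2330 (18.5%). The outcome depended on which control was used: without control replicate 1 there were 28 calls, and without control replicate 2 there were 2911, 989 higher and 1922 lower. Either way the spread of the lone control is not measured. When control replicate 2 is left out, that control also lies on the other slide, so hairpin and slide cannot be told apart. The lean towards lower genes also depended on the scaling. The median log2 fold change of all genes was -0.089, and scaling each array by its median moved it to 0.029. The share of higher genes among those at an unadjusted p under 0.05 moved with it from 38.4% to 61.8%, and it was 46.3% after quantile normalization.

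The 12 genes named on each side are those at an unadjusted p under 0.05 whose hairpin arrays lay farthest from both controls with signal on all 5 arrays, so their lack of overlap is set by the choice. None of the 24 passed. Those on the high side were led by TOX, an HMG-box nuclear protein best known from T cell development, at -1.04, -1.53 and -1.57 with the hairpin and -4.07 and -3.91 in the controls. All 3 hairpin arrays stood at least 2.34 log2 units above both controls, and its fold change was 2.61 (SE 0.33), or 6.12-fold (limma adjusted p = 0.105). These values are those of its brightest probe, A_73_112453. The probe printed above, A_73_P299346, was dimmer and gave 1.19, with hairpin replicate 3 at -5.45 beside control replicate 1 at -5.51. TCHHL1, a trichohyalin-like protein of the S100 fused family, read -2.62, -2.20 and -2.58 against -5.35 and -4.94, a fold change of 2.68 (SE 0.46). Its 3 hairpin arrays lay within 0.43 log2 units of each other.

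The beta-defensins DEFB10 and DEFB7 followed. DEFB10 read -1.68, -1.47 and -2.42 against -4.60 and -4.59, a fold change of 2.74 (SE 0.65), and the controls were 0.01 log2 units apart. DEFB7 read -1.71, -1.59 and -1.89 against -3.75 and -4.48, a fold change of 2.38 (SE 0.50), and its second probe gave 1.63. The means with the hairpin were higher by 6.67-fold and 5.22-fold.

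The chemokine CCL20, which draws CCR6-bearing lymphocytes and dendritic cells, read -0.12, 0.59 and -1.46 with the hairpin and -4.27 and -2.98 in the controls. The hairpin arrays were higher than both controls by at least 1.52 log2 units, with replicate 3 lowest and the controls 1.29 apart. The fold change was 3.30 (SE 0.79), and its 3 probes gave 1.37 to 3.85. CXCL8, the main neutrophil chemokine, showed the same order of arrays on its brightest probe, A_73_118449, at 0.17, 0.32 and -1.11 against -3.46 and -2.36. Its fold change was 2.71 (SE 0.61), or 6.53-fold, and its 3 probes gave 1.55 to 2.71. The CXCL8 probe printed above, A_73_P107676, gave the 1.55, at -0.58, -0.45 and -1.75 against -2.27 and -2.69, with the controls in the reverse order. SAA3, the serum amyloid of the mammary gland, read -0.60, 0.88 and -2.66 against -3.72 and -3.68, with 3.54 log2 units between the highest and the lowest hairpin array, and its fold change was 2.91 (SE 1.10). Against these spreads the adjusted p-values were 0.196, 0.191 and 0.274 (limma).

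Among the rest, ITGA1, the alpha subunit of a collagen-binding integrin, read -2.21, -2.52 and -2.04 against -4.05 and -3.58. The ankyrin repeat gene ANKRD29 (-1.23, -1.12 and -0.85 against -2.36 and -2.43), the solute carrier SLC35G2 (-3.04, -2.83 and -3.62 against -4.71 and -4.99) and the T cell receptor delta locus TRD@ (-0.82, -0.53 and -0.95 against -2.0 and -2.06) had fold changes of 1.33, 1.69 and 1.27. All had replicates within 0.78 log2 units of each other. CALCRL, the receptor shared by CGRP and adrenomedullin, read -0.40, -0.26 and -1.61 against -3.64 and -3.0 on its brightest probe (fold change 2.56), but its other probes gave -0.22 and -1.09, so no direction is given for the gene.

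**Figure D2:**
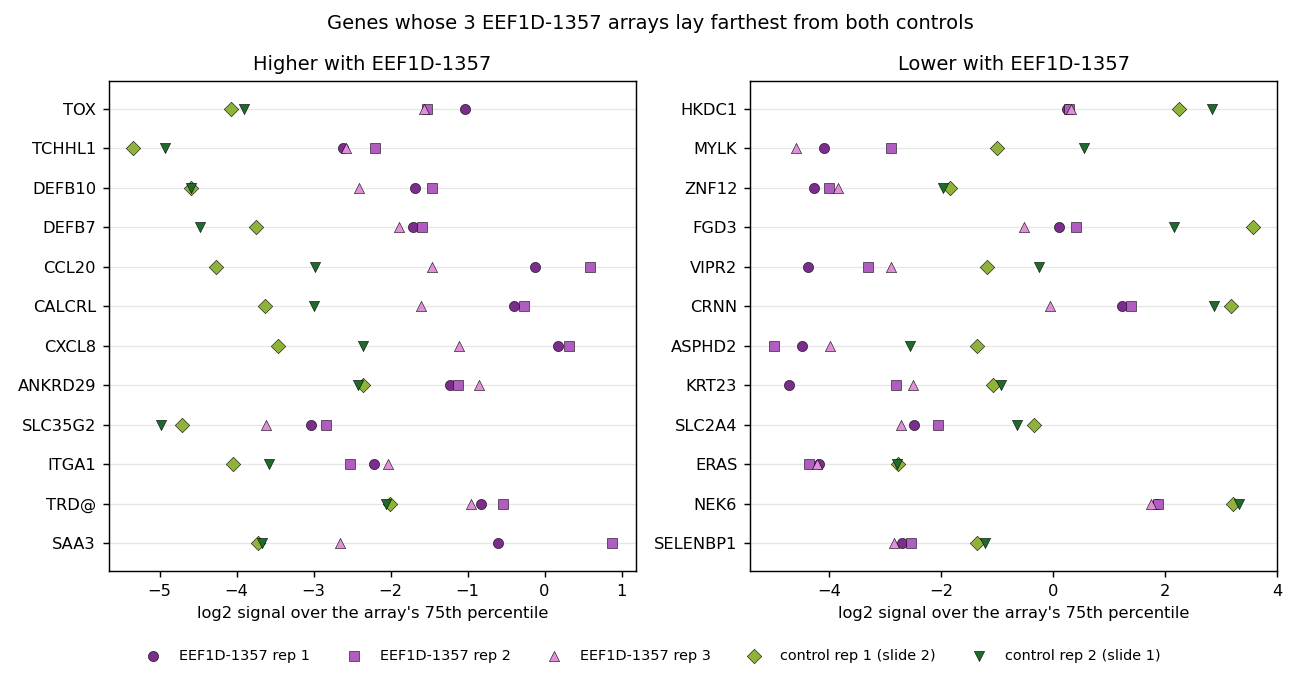
Scaled log2 signal (horizontal axis) of the 12 genes highest and the 12 lowest by the gap between the 3 EEF1D-1357 arrays and both controls, 1 marker per array. The gap is set by the choice; the plot shows the spread inside it, narrow for HKDC1, NEK6 and ERAS and wide for SAA3, CCL20 and MYLK.

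On the low side the widest gap between groups was that of HKDC1, a hexokinase domain protein. It read 0.24, 0.28 and 0.31 with the hairpin and 2.24 and 2.84 in the controls. The hairpin arrays agreed within 0.07 log2 units and lay at least 1.93 below either control, and the fold change was -2.27 (SE 0.23), or 4.81-fold lower (limma adjusted p = 0.0558). NEK6, a kinase active in mitosis, read 1.86, 1.87 and 1.74 against 3.22 and 3.33, a fold change of -1.45 (SE 0.15), and its second probe gave -1.24. ERAS, a Ras-like GTPase first known from embryonic stem cells, read -4.19, -4.37 and -4.23 against -2.78 and -2.80, a fold change of -1.47 (SE 0.15). These 3 genes shared the smallest adjusted p, 0.0558, with 3 genes that were well above background in the controls only: the oxytocin receptor OXTR, the homeobox gene EVX1 and the vomeronasal receptor gene BOSTAUV1R434. Against control replicate 2 alone HKDC1 and NEK6 passed (limma adjusted p = 0.0191 and 0.044) and ERAS did not (0.0742).

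FGD3 read 0.11, 0.40 and -0.52 against 3.57 and 2.16. All hairpin arrays lay at least 1.76 log2 units below either control. Its fold change was -2.87 (SE 0.47), and its 4 probes gave -2.99 to -2.87. MYLK, the kinase that triggers contraction of smooth muscle and myoepithelium, read -4.10, -2.90 and -4.60 against -1.0 and 0.56, the largest fold change of the 12 at -3.65 (SE 1.03), or 12.5-fold. Its hairpin arrays spread over 1.71 log2 units and its controls over 1.55. CRNN, a protein of cornified squamous epithelium, read 1.23, 1.39 and -0.064 against 3.18 and 2.87 (fold change -2.17). KRT23, an epithelial keratin, read -4.72, -2.81 and -2.51 against -1.08 and -0.94 (fold change -2.34), with replicate 1 far below the other hairpin arrays.

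SLC2A4, the insulin-responsive glucose transporter GLUT4, read -2.48, -2.06 and -2.73 against -0.34 and -0.65, a fold change of -1.93, although its 4 probes ranged from -2.13 to -0.15. The others were the zinc finger gene ZNF12 (-4.28, -4.01 and -3.84 against -1.85 and -1.96), the receptor VIPR2 for vasoactive intestinal peptide (-4.38, -3.31 and -2.90 against -1.19 and -0.25), ASPHD2 (-4.50, -4.99 and -3.98 against -1.36 and -2.56) and the selenium-binding protein SELENBP1 (-2.71, -2.54 and -2.85 against -1.36 and -1.22). Their fold changes were -2.14, -2.81, -2.53 and -1.41. The adjusted p-values of the 12 lay between 0.0558 and 0.215 (limma). Without control replicate 2, 15 of the 24 named genes passed, among them CXCL8, CCL20, TOX, HKDC1, NEK6 and ERAS. Without control replicate 1 only HKDC1 and NEK6 did.

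Some genes were at background in 1 group, where only a bound for the fold can be given: the mean of the bright group over the level at which spots began to count as well above background on each array of the dim group. OLR1, a scavenger receptor for oxidised lipoprotein, read -2.53, -1.20 and -1.62 with the hairpin and -8.03 and -6.27 in the controls, where it was not well above background, and was at least 14.7-fold higher (limma adjusted p = 0.0963). ASXL3, a Polycomb-associated protein, was at least 2.42-fold higher on its brightest probe, at -4.65, -4.10 and -4.42 against -5.94 and -7.13. Its other probe read -6.40, -6.36 and -5.98 against -5.33 and -7.69, a fold change of 0.26. On that probe control replicate 1 lay above all hairpin arrays and was the only one of the 5 arrays well above background, so the bound holds for the brightest probe only. In the other direction 97 genes had such a bound, with signal in both controls and in none of the hairpin arrays. Genes under a LOC number were not counted, nor were those whose bright mean did not exceed the level for well above background. By the same rule the higher direction held 2, OLR1 and ASXL3. Probes well above background made up 67.0%, 62.6% and 60.7% on the hairpin arrays and 71.6% and 65.3% on the controls. The part of these shares in the 2 counts was not tested. The collagen chain COL1A2 was at least 12.4-fold lower, at -6.88, -7.26 and -6.65 against -3.66 and 0.23, and its 5 probes all pointed down. Its probes A_73_P297006 and A_73_P359676 were not well above background in control replicate 1. PTPRN (-5.77, -6.19 and -5.83 against -4.82 and -0.60), a phosphatase-like protein of secretory granules, and RFLNA (-5.81, -5.77 and -7.25 against -1.68 and -4.51) were at least 6.06-fold and 4.68-fold lower. In COL1A2, PTPRN and RFLNA the controls themselves were 3.89, 4.23 and 2.83 log2 units apart. Their bounds hold for the mean of the controls and would be smaller against the dimmer control alone. None of these 5 genes passed against both controls.

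Against control replicate 2 alone, on the same slide, 28 genes passed, 4 higher (0.0317%) and 24 lower (0.19%, limma adjusted p under 0.05). In this fit the lone control is assumed to vary like the hairpin arrays, and its own spread is not measured. The lower genes were led among those with signal on all 5 arrays by BOLA-DOA, an MHC class II chain, NAPRT, which starts NAD synthesis from nicotinic acid, and the nephrin-like KIRREL2. BOLA-DOA read -3.67, -3.95 and -3.75 with the hairpin, -0.31 in control replicate 2 and -2.55 in control replicate 1, and fell by 3.48 (SE 0.19, limma adjusted p = 0.0063). NAPRT read -3.15, -3.02 and -3.13 against -2.08 and 0.086, and fell by 3.19 (SE 0.20). Its probe (chr14:942618-942677) lies 4257 bases from the brightest EEF1D probe. The other 6 measured genes within 50000 bases of EEF1D had fold changes of -0.10 to 0.46 against control replicate 2. Against both controls they had -0.48 to 0.26, and NAPRT had -2.10. KIRREL2 read -3.88, -4.02 and -4.03 against -3.05 and -0.82, and fell by 3.15 (SE 0.14). In all 3 genes the hairpin arrays agreed within 0.28 log2 units while the controls differed by 2.17 to 2.24, with control replicate 1 the nearer to the hairpin arrays.

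Control replicate 1, which this fit does not use, lay above all 3 hairpin arrays in 22 of the 24 lower genes and below them in 2 of the 4 higher ones. The like share over all genes was not counted. Over all genes control replicate 1 also stood higher, with a median log2 fold change of -0.22 against it. In 7 of the 28 it was nearer to control replicate 2 than to the hairpin mean: HKDC1, NEK6, the fatty acid transporter SLC27A3, the pre-T cell receptor chain PTCRA, the protease CTSW, BOSTAUV1R434 and the inositol phosphate kinase ITPK1. SLC27A3 read -3.56, -3.65 and -3.81 against -2.76 and -2.27 and fell by 1.41 against control replicate 2 (limma adjusted p = 0.0389). In STOML1, a stomatin-like protein, control replicate 1 lay with the hairpin arrays, at -3.42 beside -3.13, -3.34 and -3.31, and control replicate 2 alone was high at -0.56. PHF8, a histone demethylase, read -3.40, -3.24 and -3.48 against -2.73 and -0.84. HTR1B, a serotonin receptor, differed by -2.74 on its brightest probe, but 2 of its 5 probes pointed up against that control, so no direction is given for the gene.

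Higher than control replicate 2 were the mucin MUC1, the selenoprotein SELENOW, ITPK1 and KCNG1. MUC1, which coats the luminal face of the epithelium and the milk fat globule, read 2.91, 3.68 and 3.40 with the hairpin, -0.0042 in control replicate 2 and 2.86 in control replicate 1. It rose by 3.33 (SE 0.31, limma adjusted p = 0.0287) against control replicate 2, and all 5 of its probes pointed up, yet control replicate 1 stood next to the lowest hairpin array. SELENOW read 4.05, 4.0 and 3.94, with 1.53 in control replicate 2, and rose by 2.47, while control replicate 1, at 4.44, lay above all hairpin arrays. ITPK1 read -2.87, -2.90 and -3.04 against -3.53 and -4.13, and rose by 1.19. KCNG1, a potassium channel subunit, was well above background on control replicate 1 only.

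Of the 28 genes 17 were well above background on all 5 arrays. With the 4 arrays of slide 1 fitted alone 0 genes passed (limma, smallest adjusted p = 0.0858, with 1537 genes at an unadjusted p under 0.05). Without EEF1D-1357 replicate 1 there were 10 calls and without replicate 2 there were 8.

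**Figure D3:**
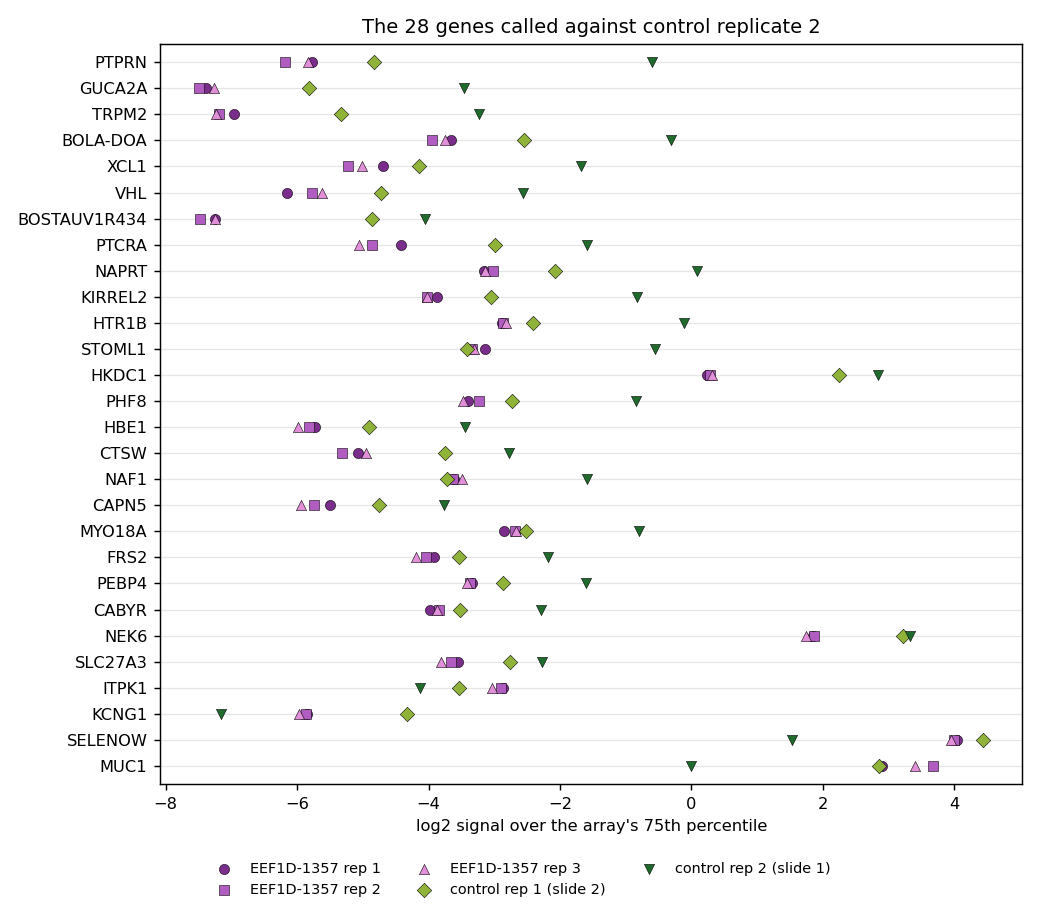
Scaled log2 signal (horizontal axis) of the 28 genes called against control replicate 2, ordered by log2 fold change, 1 marker per array. Control replicate 2 stands apart from the tight hairpin arrays by the choice of genes, whereas control replicate 1 lies between them in most genes, beside the hairpin arrays in STOML1 and NAF1, and next to control replicate 2 in NEK6.

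Gene lists are described by the median log2 fold change of their measured members against both controls, beside -0.089 for all genes, and by how many members had all 3 hairpin arrays above or below both controls, beside 12.2% and 18.5%. Where members above or below 0 are counted, the shares over all genes were 41.4% above and 58.6% below. None of the list members passed against both controls. Of the medians against both controls printed below, each kept its sign under the 20 alternatives tried unless a turn is named or the median against control replicate 2 has the other sign. Not all of these could move a median. Leaving out an EEF1D-1893 array, fitting only the 5 arrays compared, and an intensity trend with robust prior change the estimate of the spread alone. Slide as a block and leaving out control replicate 1 are the same fit. The position of each array is the median, over the members, of its distance from the mean of the 5 arrays.

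Chemokines and inflammatory cytokines stood higher with the hairpin. Their median was 0.55 over 26 measured members, 0.76 against control replicate 2, and 12 members lay above both controls and 1 below. The arrays stood at 0.28, 0.39 and 0.081 with the hairpin and -0.54 and -0.42 in the controls, so the groups did not overlap. Beside CXCL8 and CCL20 the 12 included IL18, a cytokine stored in epithelium, at 3.32, 3.18 and 2.77 against 1.58 and 2.11, a fold change of 1.24 (SE 0.33). They also included the alarm cytokine IL1A (1.30, 1.18 and 1.87 against -0.53 and 0.51), IL6 (0.71, 1.61 and 1.55 against -0.34 and 0.35) and the neutrophil chemokine CXCL2 (0.26, 0.20 and -1.27 against -2.46 and -2.12). IL36A, a skin cytokine of the IL-1 family, went the other way, at -4.64, -5.13 and -4.74 against -3.55 and -3.53. IL1A, IL6 and CXCL2 were singled out after their values were seen.

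The epithelial defence list had a median of 0.89 over 18 members, with 7 above both controls and 0 below. Its arrays stood at 0.52, 1.29 and -0.49 with the hairpin and -0.50 and -0.56 in the controls, so replicate 3 stood level with the controls. Without replicate 3 the median was 1.41, and without replicate 2 it was 0.35. CFB, complement factor B, read 4.33, 4.16 and 3.88 against 3.33 and 2.19, a fold change of 1.37 (SE 0.46), and the cathelicidin CATHL5 read -4.36, -4.23 and -3.85 against -4.64 and -5.01. The lingual antimicrobial peptide LAP showed the split most plainly, at -0.49, 0.61 and -4.53 against -4.56 and -5.69: replicates 1 and 2 stood far above both controls, and replicate 3 level with control replicate 1. For the calgranulin S100A8, at -0.80, 0.71 and -3.43 against -3.32 and -1.03, replicates 1 and 2 were above both controls and replicate 3 below both. LAP and S100A8 were singled out after their values were seen.

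The NF-kB list, which holds the receptors and transcription factors that switch such genes on, had a median of 0.13 over 32 members, with 7 above both controls and 3 below. It was 0.050 against control replicate 1, 0.20 against control replicate 2 and 0.25 without EEF1D-1357 replicate 3. REL, an NF-kB subunit, read -1.59, -1.43 and -1.50 against -2.10 and -2.37, a fold change of 0.73 (SE 0.14), and BIRC3, an inhibitor of apoptosis, read 2.07, 2.59 and 1.83 against 0.43 and 1.56. The bacterial lipoprotein receptor TLR2 was lower on its brightest probe, at 4.17, 4.27 and 4.45 against 5.29 and 5.02, but its other 2 probes pointed up, the highest at 0.67. The double-stranded RNA receptor TLR3 read -1.60, -1.73 and -1.99 against -2.66 and -2.20, with 1 of its 3 probes pointing down. Of the leukocyte markers, genes known from immune cells, 0 of 6 measured genes lay above both controls and 1 below. Whether immune cells were their source here was not tested. The lymphocyte and phagocyte genes PTPRC (1.70, 2.37 and 1.78 against 2.08 and 1.23) and LCP1 (2.76, 3.39 and 4.20 against 3.13 and 2.18) were well above background on all 5 arrays with overlapping groups. So was the T cell gene CD3D, lower in all hairpin arrays (0.71, 0.67 and 1.01 against 1.47 and 1.40). The summed log2 signal of the leukocyte list was 3.62, 4.16 and 4.6 with the hairpin and 4.04 and 3.33 in the controls. Most of it came from LCP1 and PTPRC. Of the 9 markers on the array 1, CD3E, was well above background on none. The part of such cells in the chemokine values was not tested.

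Interferon-stimulated genes, which double-stranded RNA can switch on, had a median of -0.10 over 29 members, with 1 above both controls and 3 below, and the median turned positive under 4 of 20 alternatives, median scaling and leaving out EEF1D-1357 replicate 3 among them. The hairpin arrays enclosed both controls, at 0.42, 0.23 and -0.55 against -0.19 and 0.15. ISG15, a ubiquitin-like protein picked after its values were seen, read 3.80, 3.52 and 0.74 against 2.38 and 2.74: replicates 1 and 2 were above both controls and replicate 3 was below both. ISG20, an exonuclease, was the 1 member above both controls, at 0.34, 0.12 and 0.39 against -0.64 and -0.41. The small RNA machinery had a median of -0.21 over 12 members, and -0.096 against control replicate 2, with 0 above both controls and 4 below. DICER1, which cuts hairpins into small RNAs, read -0.36, -0.46 and -0.40 against 0.10 and -0.019, and XPO5, which exports them from the nucleus, -0.49, -0.39 and 0.072 against 0.58 and 0.23.

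**Figure D4:**
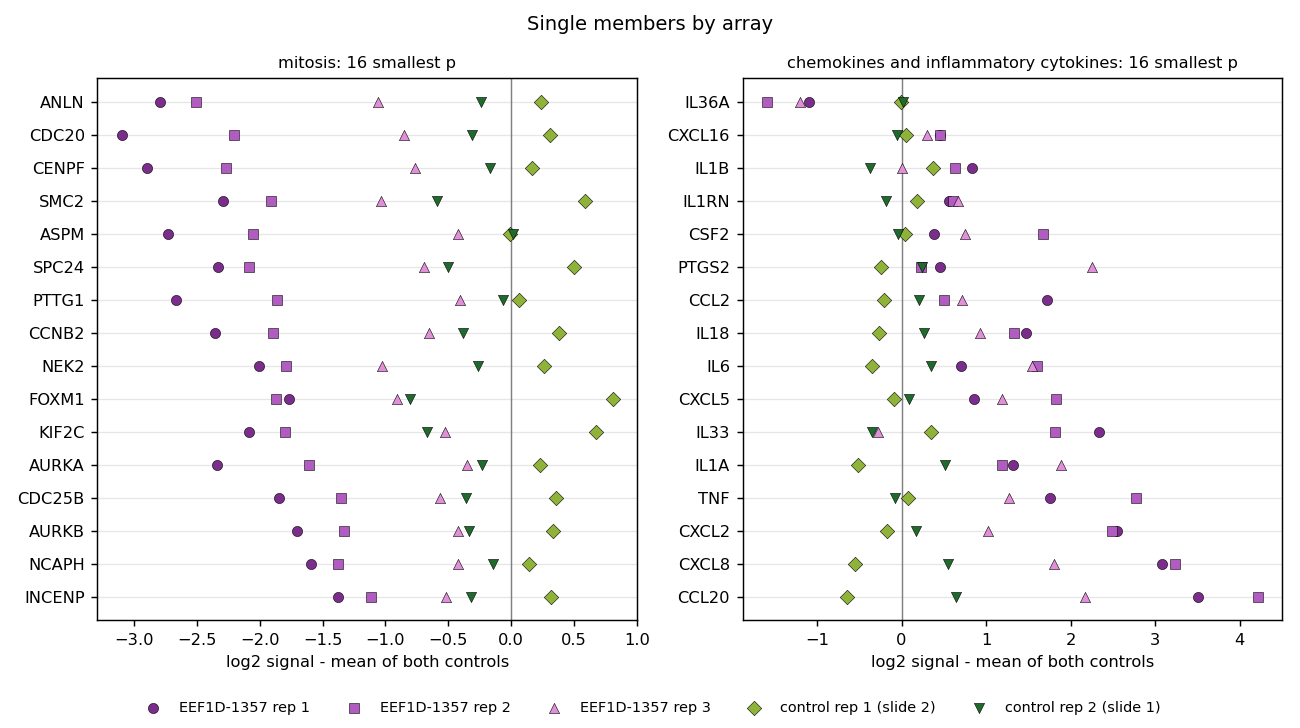
Log2 signal minus the mean of both controls (horizontal axis) of the 16 mitosis genes and the 16 chemokine and cytokine genes with the smallest p, 1 marker per array. The genes were chosen by their separation; in the mitosis genes replicates 1 and 2 lie far to the left and replicate 3 between them and control replicate 2 or near it; in CXCL8 and CCL20 all 3 hairpin arrays lie to the right of both controls.

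Genes of mitosis stood lower with the hairpin: all 51 measured members had fold changes below 0, with a median of -1.14, or -0.99 against control replicate 2. Only 21 of them had all 3 hairpin arrays below both controls, and 16 were at an unadjusted p under 0.05. The arrays stood at -1.20, -0.66 and 0.51 with the hairpin and 0.92 and 0.52 in the controls. Replicates 1 and 2 were thus low, and replicate 3 stood level with control replicate 2. Without replicate 3 the median was -1.63. The centrosome kinase NEK2 read -5.33, -5.12 and -4.35 against -3.06 and -3.59, a fold change of -1.61 (SE 0.38). The cytokinesis protein ANLN read -2.65, -2.36 and -0.92 against 0.38 and -0.10, a fold change of -2.12 (SE 0.53), and the kinetochore protein CENPF -2.95, -2.32 and -0.82 against 0.11 and -0.22, a fold change of -1.98 (SE 0.58). SMC2, a condensin subunit, read -2.10, -1.71 and -0.83 against 0.79 and -0.39. In these 4 genes all hairpin arrays lay below both controls, replicate 3 the nearest to them, and their limma adjusted p-values lay between 0.194 and 0.223.

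Genes of DNA replication also set replicates 1 and 2 apart from replicate 3, at -0.58, -0.43 and 0.25 with the hairpin and 0.60 and 0.11 in the controls. Their median was -0.66 over 52 members, with 11 below both controls and 4 above. It was -0.39 against control replicate 2 and -0.93 without EEF1D-1357 replicate 3. CDC45, part of the replicative helicase, read -0.56, -0.26 and 0.69 against 1.78 and 1.12, a fold change of -1.50 (SE 0.42), and MCM10, which helps to start it, -1.13, -0.95 and -0.28 against 1.33 and -0.017. The polymerase subunits POLD3 (-1.66, -1.61 and -1.14 against -0.53 and -0.81) and POLA2 (-3.56, -3.17 and -2.49 against -1.45 and -2.21) had fold changes of -0.80 and -1.24. Cyclin D and CDK inhibitor genes had a median of -0.045 over 14 members, and it turned positive under each of the other scalings tried. In bulk arrays fewer dividing cells and less RNA per cell cannot be told apart.

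Translation genes were slightly lower, and most of the shift was absent against control replicate 2 alone. The cytosolic ribosomal proteins stood at a median of -0.26. Of their 78 measured members 76 were below 0, and 35 lay below both controls. The arrays stood at -0.14, -0.15 and -0.010 with the hairpin and 0.35 and -0.034 in the controls. The median was -0.077 against control replicate 2, -0.45 against control replicate 1 and -0.038 after quantile normalization. RPL6 read 7.39, 7.40 and 7.54 against 7.89 and 7.72 and RPS6 6.93, 6.86 and 7.04 against 7.52 and 7.15, fold changes of -0.36 and -0.39. The elongation factor list had a median of -0.29 over 12 members, EEF1D included, with -0.071 against control replicate 2 and -0.51 against control replicate 1. The beta subunit gene EEF1B2 read 6.28, 6.26 and 6.46 against 6.81 and 6.54, below both controls. EEF1G, the gamma subunit, read 5.50, 5.32 and 5.65 against 6.03 and 5.49, with control replicate 2 inside the hairpin range. EEF1A1, the tRNA carrier that the complex reloads, read 7.29, 7.37 and 7.51 against 7.77 and 7.63, and 1 of its 9 probes pointed up. EEF2K, the kinase that switches off the translocase eEF2, was lower than both controls in all 3 arrays, at 1.03, 0.81 and 0.81 against 2.14 and 1.60, a fold change of -0.99 (SE 0.21), with a limma adjusted p of 0.185. The aminoacyl-tRNA synthetases had a median of -0.24 over 21 members, with -0.063 against control replicate 2 and -0.38 against control replicate 1, and the initiation factors -0.012 over 34, with a sign that turned under 5 of 20 alternatives. EEF1G was named as the remaining subunit of the complex, after its values were seen.

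Endoplasmic reticulum (ER) chaperones and unfolded protein response genes, which fold secreted proteins, stood higher: 23 of 30 members were above 0, 12 lay above both controls and 0 below, with a median of 0.21, or 0.28 against control replicate 2 and 0.12 against control replicate 1. The arrays stood at 0.050, 0.047 and 0.17 with the hairpin and -0.043 and -0.25 in the controls. DNAJB9, a co-chaperone in the ER, read 1.46, 1.35 and 1.25 against 0.30 and 0.78, a fold change of 0.81 (SE 0.17). XBP1, a transcription factor of that response, read 4.21, 3.91 and 4.13 against 3.61 and 3.49, a fold change of 0.53 (SE 0.15). All hairpin arrays lay above both controls in each, within 0.30 log2 units of one another, and the limma adjusted p-values were 0.185 and 0.215. The heat shock list had a median of 0.12 over 30 members, 0.21 against control replicate 2 and 0.042 against control replicate 1, with 7 above both controls and 1 below. DNAJB4 read 1.05, 0.87 and 0.32 against -0.11 and -0.17 on its brightest probe, and its other probe pointed down (-0.54). Of the oxidative phosphorylation genes, which encode the respiratory chain, 16 of 54 lay above both controls and 2 below, with a median of 0.057, or 0.010 without EEF1D-1357 replicate 3 and 0.033 against control replicate 1.

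The ATF4 stress response, which raises amino acid synthesis when translation is limited, had a median of -0.35 over 27 members, with 0 above both controls and 7 below. It was -0.21 against control replicate 2 and -0.67 against control replicate 1. CBS, which turns homocysteine into cystathionine, read -2.18, -2.39 and -2.0 against -1.02 and -1.19, a fold change of -1.08 (SE 0.16), and the hairpin arrays agreed within 0.38 log2 units. The serine synthesis enzyme PSAT1 read 1.07, 1.01 and 2.42 against 3.30 and 2.45, where replicate 3 stood just below control replicate 2. In the apoptosis list 7 of 28 members lay above both controls and 2 below. CASP6, a protease of apoptosis, read 0.91, 1.0 and 0.99 against -0.059 and 0.51. The survival gene BCL2 read -0.82, -0.96 and -0.95 against 0.83 and -0.30, a fold change of -1.18 (SE 0.32), and -0.61 against control replicate 2. In both genes the groups did not overlap. The list's median was near 0 and changed sign under 11 of 20 alternatives.

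Of 8 measured milk protein genes 1, MUC1, lay above both controls and 0 below. Beta-casein CSN2 read 0.94, 0.85 and 0.85 against 1.54 and 0.86, with the hairpin arrays level with control replicate 2, and beta-lactoglobulin PAEP -2.34, -2.49 and -2.40 against -1.85 and -2.40. In each gene 1 other probe pointed up. Kappa-casein CSN3, singled out after its values were seen, was high in replicate 2 alone, at -6.53, -0.49 and -5.36 against -5.71 and -5.28. De novo fatty acid synthesis had a median of -0.076 over 18 members, which turned positive under quantile normalization, median scaling and in the deposited table. Its main enzymes were nevertheless below both controls in all 3 arrays: fatty acid synthase FASN read 4.97, 5.13 and 5.27 against 5.93 and 5.67, a fold change of -0.68 (SE 0.16), and acetyl-CoA carboxylase ACACA -3.41, -3.45 and -3.0 against -2.26 and -2.35, a fold change of -0.98 (SE 0.21). SREBF1, the transcription factor of these genes, read -1.43, -1.58 and -1.64 against -1.10 and -1.08. Adjusted p-values of the 3 were 0.201, 0.179 and 0.273 (limma). Fatty acid uptake and triglyceride assembly, which holds SLC27A3, had a median of -0.13 over 27 members, with 8 below both controls and 1 above, and the mean of each gene's probes turned it positive. It was -0.037 against control replicate 2 and -0.28 against control replicate 1. Cholesterol synthesis genes stood at -0.29 over both controls, at 0.024 against control replicate 2 and at -0.68 against control replicate 1.

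Glucose genes split in a like way, at -0.27 over both controls, 0.0078 against control replicate 2 and -0.55 against control replicate 1 over 26 members, with HKDC1 and SLC2A4 among the lowest. PFKFB4, a regulator of glycolysis, read -3.28, -3.38 and -4.01 against -4.58 and -4.44 on its brightest probe, and its other probe gave -0.021. Amino acid transporters stood at -0.33, -0.078 and -0.51 in the same order over 23 members. Of the PI3K, AKT and mTOR genes, which pass on growth factor and nutrient signals, 3 of 28 lay above both controls and 9 below, with a median of -0.15, or -0.28 against control replicate 1. Among signalling genes FOXO1, a transcription factor that AKT holds out of the nucleus, read 0.076, 0.12 and 0.066 against 0.90 and 0.83, a fold change of -0.78 (SE 0.14), and the epidermal growth factor relative NRG1 read 1.55, 1.42 and 1.85 against 2.54 and 2.94, a fold change of -1.13 (SE 0.20). NFIB, a nuclear factor of mammary genes, read 1.66, 1.78 and 1.56 against 2.30 and 2.70, a fold change of -0.83 (SE 0.18). In these 3 genes the groups did not overlap, and the adjusted p-values were 0.147, 0.147 and 0.185 (limma).

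**Figure D5:**
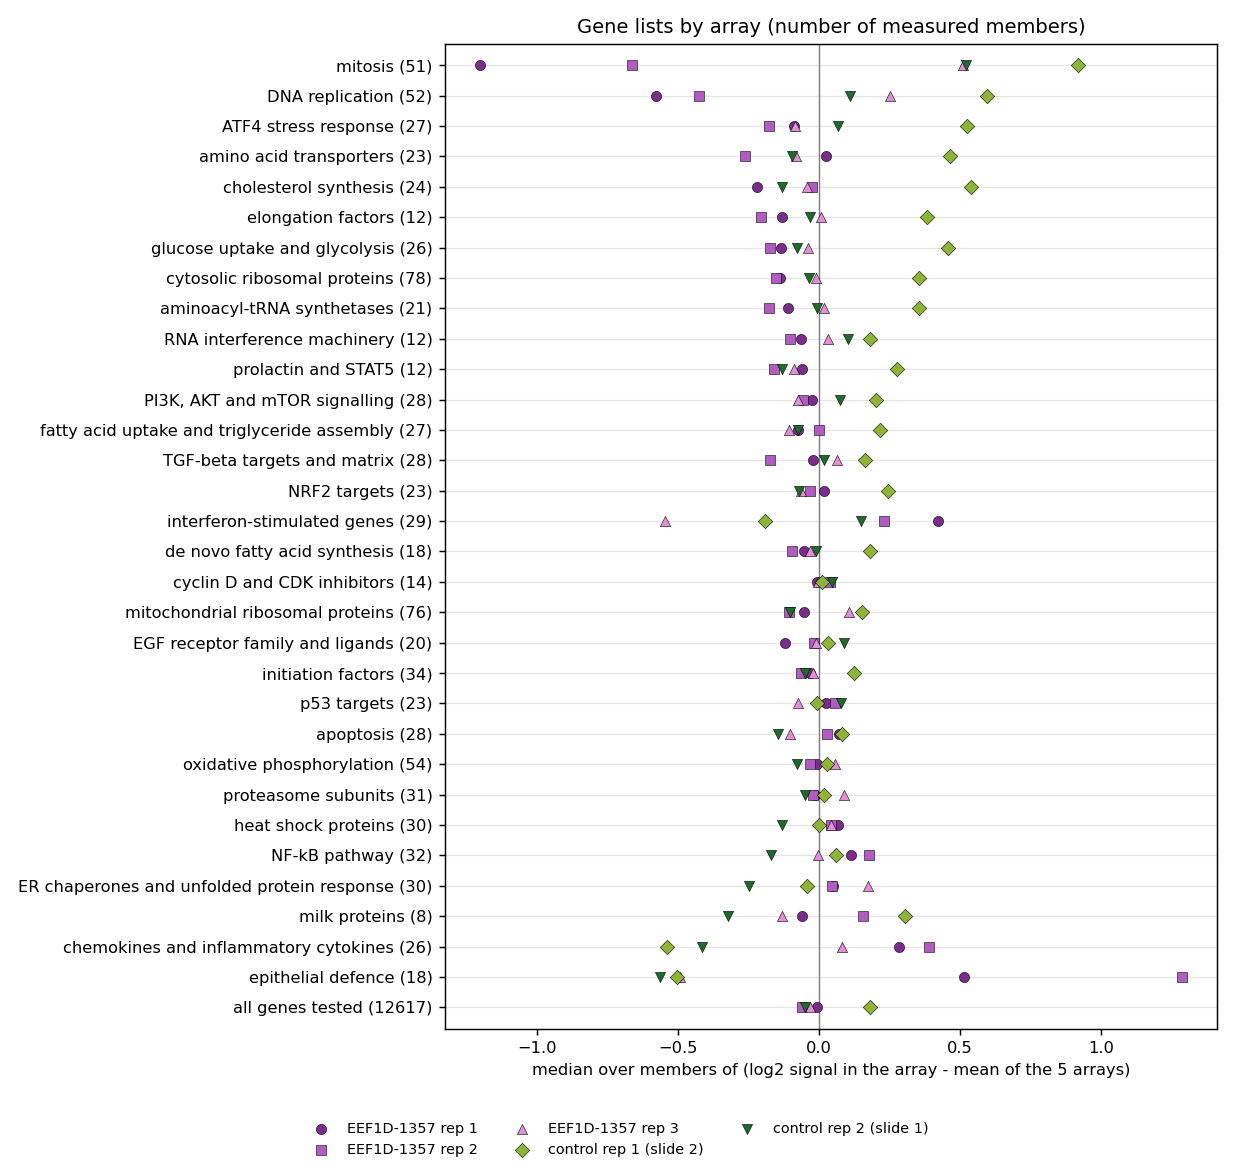
Median over the members of each gene list of the log2 distance from the mean of the 5 arrays (horizontal axis), 1 marker per array, with the number of measured members in brackets. Control replicate 1 stands to the right in most lists with lower medians, as it does over all genes (0.18), while mitosis, DNA replication, epithelial defence and interferon genes separate EEF1D-1357 replicates 1 and 2 from replicate 3.

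The basal and myoepithelial markers had a median of -0.43 over 11 measured genes, with MYLK and OXTR lowest, 1 gene above both controls (the integrin ITGA6) and 2 below. Without EEF1D-1357 replicate 1 the median was -0.25. OXTR read -7.06, -6.59 and -7.16 against -4.42 and -4.40 and was well above background in the controls only. The basal keratin KRT5 read 6.67, 6.82 and 6.46 against 7.45 and 6.71, KRT14 5.25, 5.07 and 3.22 against 4.84 and 6.91 and smooth muscle actin ACTA2 3.33, 3.46 and 4.53 against 3.59 and 4.89, each with overlapping groups. The log2 summed signal of the basal list was 7.97, 8.08 and 8.27 with the hairpin and 8.55 and 8.47 in the controls. Fibroblast markers had a median of -0.67 over 10 measured genes, 4 below both controls and 0 above, and -0.24 against control replicate 2. COL3A1 was among the 4 on its brightest probe, but 8 of its 10 probes pointed up. The summed signal of the fibroblast list was 6.80, 6.73 and 7.20 against 7.85 and 6.85. Nearly all of it came from VIM, at 6.78, 6.71 and 7.19 against 7.83 and 6.82, so the sum says little about the other markers. The part of such cells in the values of MYLK, OXTR and COL1A2 was not tested.

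Against the other hairpin, EEF1D-1893, 0 of 12617 genes passed (0%, limma, smallest adjusted p = 0.262), and 809 were at an unadjusted p under 0.05. Each hairpin lay on its own slide, so hairpin and slide cannot be told apart there. EEF1D differed by -0.19 between the hairpins. The largest differences among the genes described above were those of COL1A2 (-4.34, EEF1D-1357 minus EEF1D-1893), DEFB7 (3.2), OLR1 (2.24), MUC1 (1.98), TCHHL1 (1.74) and DEFB10 (1.53), beside CALCRL, whose probes disagree (2.32). Genes at background with EEF1D-1357 or in the controls, such as COL1A2 and OLR1, are among them. The differences of HKDC1 (-0.74), CXCL8 (0.76), CCL20 (0.65), TOX (0.43), NEK6 (-0.41) and NAPRT (-0.23) were smaller. None of them passed.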

How the data were processed

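Each array was scanned in 1 colour (Cy3), and per the file headers each spot's intensity had its background subtracted by Agilent's Feature Extraction software (10.7.3.1), where the submitters' processing notes name 9.1. The headers also give 0 or 1 flags for spots well above background, saturated or outlying, which were used as deposited. The authors' deposited table holds quantile-normalized log2 values (median 7.55 on each array) and served as an alternative.

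Here log2 intensity minus each array's 75th percentile was used. Probes outlying on any array (214 of 43653) or well above background on fewer than 2 of 8 arrays were left out, and the brightest probe of a gene was kept (12617 genes, named through RefSeq's table of ARS-UCD2.0 and the files). The limma package (3.58.1, under R 4.3.3, with statmod 1.5.0 for blocks) estimated 1 mean for each group from all 8 arrays, with 5 residual degrees of freedom. Against control replicate 2 the controls had a mean each, which leaves 4. Calls needed a two-sided Benjamini-Hochberg adjusted p under 0.05. The workflow was tested on simulated data.

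Named were EEF1D, up to 12 genes in each direction against both controls (called, or else at an unadjusted p under 0.05 by the smallest gap between groups), up to 6 further against control replicate 2, up to 4 per list by p and up to 3 in each direction at background in 1 group. All but the last 2 kinds had signal on all 5 arrays. The members and lists were chosen with earlier results of these data known. Same-numbered arrays did not vary together (correlations of 0.11, -0.11 and 0.078), so the numbers were not taken as pairs.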

Additional observations from a re-analysis of the deposited data

How the results depend on the processing

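Against both controls 0 genes were called with limma, with 2047 at an unadjusted p under 0.05. The count was 3 among probes well above background on all 5 arrays, 2 with an intensity trend and robust prior, 28 with slide as a block and 8 at an adjusted p under 0.1. Leaving out 1 array gave 0 to 2911 calls (28 without control replicate 1, 2911 without control replicate 2), and the replicate block gave 0. Against control replicate 2 there were 94 calls with no filter on dim probes, 18 with the trend and robust prior, 0 with slide 1 fitted alone, and 8 to 24 with an array left out. Between the hairpins normexp correction with quantile normalization gave 1 call. The EEF1D change ran from -1.48 to -0.50 with an array left out. The ribosomal protein median was -0.038 after quantile normalization, -0.15 with median scaling, -0.017 with normexp, -0.036 in the deposited table, -0.077 with the slide block and -0.45 to -0.077 with an array left out. The median of ER genes was 0.33 with median scaling and 0.12 to 0.28 with an array left out. That of chemokines was 0.76 with the slide block and 0.49 to 0.88 with an array left out. All 24 named genes kept their direction under the 20 alternatives. They were chosen by the gap between groups, so leaving out an array could not have turned their direction. Neither could the alternatives that change only the estimate of the spread. The causes of these shifts were not tested. Array number (3 against 2), a control spread wider than that within the hairpin group, and slides that hold 1 control each limit every comparison; probes at background give bounds only.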
